A study of Mus musculus with 6 samples.

Results

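The genes described here encode the tumour necrosis factor (TNF) superfamily, a family of trimeric cytokine ligands and of the receptors that bind them. They were taken by name from the deposited gene table. The protein-coding rows whose symbol begins with Tnfsf or Tnfrsf were used, together with Tnf, Lta, Ltb, Ltbr, Fas, Fasl, Cd40, Cd40lg, Cd27, Cd70, Eda and Edar. This gave 44 genes, 19 ligands and 25 receptors, of 39089 rows in all. The tissue was the limbus of wild-type mice, where the cornea meets the conjunctiva, profiled by RNA sequencing of poly(A)-selected RNA. In the 3 L-733,060 samples this NK1 receptor antagonist, which blocks the receptor for substance P, had been injected under the conjunctiva on days 0 and 3. In the 3 control samples the injections held sterile water, and the labels do not give their days. All limbal tissue was collected after a week. The labels give neither the strain, age and sex of the mice nor the number of mice or eyes in a sample. The p-values therefore weigh a group difference only against the spread of these 6 samples within their groups, and that spread may be technical.

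Most ligands of the family are made as membrane proteins and some are shed by proteases. Receptors of one class carry a death domain and can start cell death through FADD and caspase-8, whereas the other signalling receptors recruit TRAF adaptors and switch on NF-kB. Decoy receptors bind a ligand without passing on a signal. In epithelia and at the ocular surface the family is known for its part in inflammation, in the turnover of injured cells and, through ectodysplasin, in the formation of skin appendages and eyelid glands.

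The samples held 18708288 to 21230942 counts with L-733,060 and 21870713 to 23541791 counts in controls, and the 44 genes took 0.0467 to 0.0547% of the counts with L-733,060 and 0.0336 to 0.0372% in controls. Across 15712 tested genes 41.3% passed the threshold of 0.05 on the adjusted p (edgeR, quasi-likelihood), 21.4% of the tested genes being higher and 19.9% lower with L-733,060. The corneal keratin Krt12 was detected in every sample, at 1427 to 2065 CPM (counts scaled to a common library size) with L-733,060 and 16588 to 23252 CPM in controls. The conjunctival list, 6 of 6 higher (1 of them tested only through the L-733,060 samples), summed to 22921 to 28290 CPM with L-733,060 and 9878 to 11341 CPM in controls, so genes of both epithelia were detected in each sample. As these are bulk samples, fewer cells of a type and less RNA per cell cannot be told apart.

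Of the 44 genes, 32 had enough counts to be tested. Among these, 13 rose and 5 fell with L-733,060, and 14 did not pass the threshold. That is 56.2% past the threshold, against 41.3% of all tested genes. The groups did not overlap for 19 of the 32, with L-733,060 above for 13 and below for 6, against 52.0% of all tested genes (26.6% above and 25.4% below). The receptors that rose were Tnfrsf26, Tnfrsf23, Tnfrsf9, Tnfrsf1b, Tnfrsf11b, Fas, Tnfrsf11a, Tnfrsf22, Tnfrsf18 and Tnfrsf12a, and the one that fell was Tnfrsf21. The ligands that rose were Tnfsf11, Tnfsf14 and Tnfsf10, while Eda, Tnfsf12, Tnfsf13 and the read-through row Tnfsfm13 fell. Tnfsfm13 shares exons with Tnfsf12 and with Tnfsf13, so the falls of these rows are not separate results, although each is counted here. The median log2 fold change was 0.40 over 22 tested receptors and -0.25 over 10 tested ligands, beside -0.00 over all tested genes, and neither median moved when Tnfsf11 was set at its lower bound. Tnfsf11, Tnfsf14, Tnfrsf9 and Tnfrsf26 passed the filter on low counts only through the L-733,060 samples, which fixes their direction, so these counts and medians describe the tested genes and support no statement about the family. In each of 10 other settings of the analysis the 13 rises were kept, whereas without L-733,060 sample 2 only Eda and Tnfsfm13 were called lower.

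**Figure D1:**
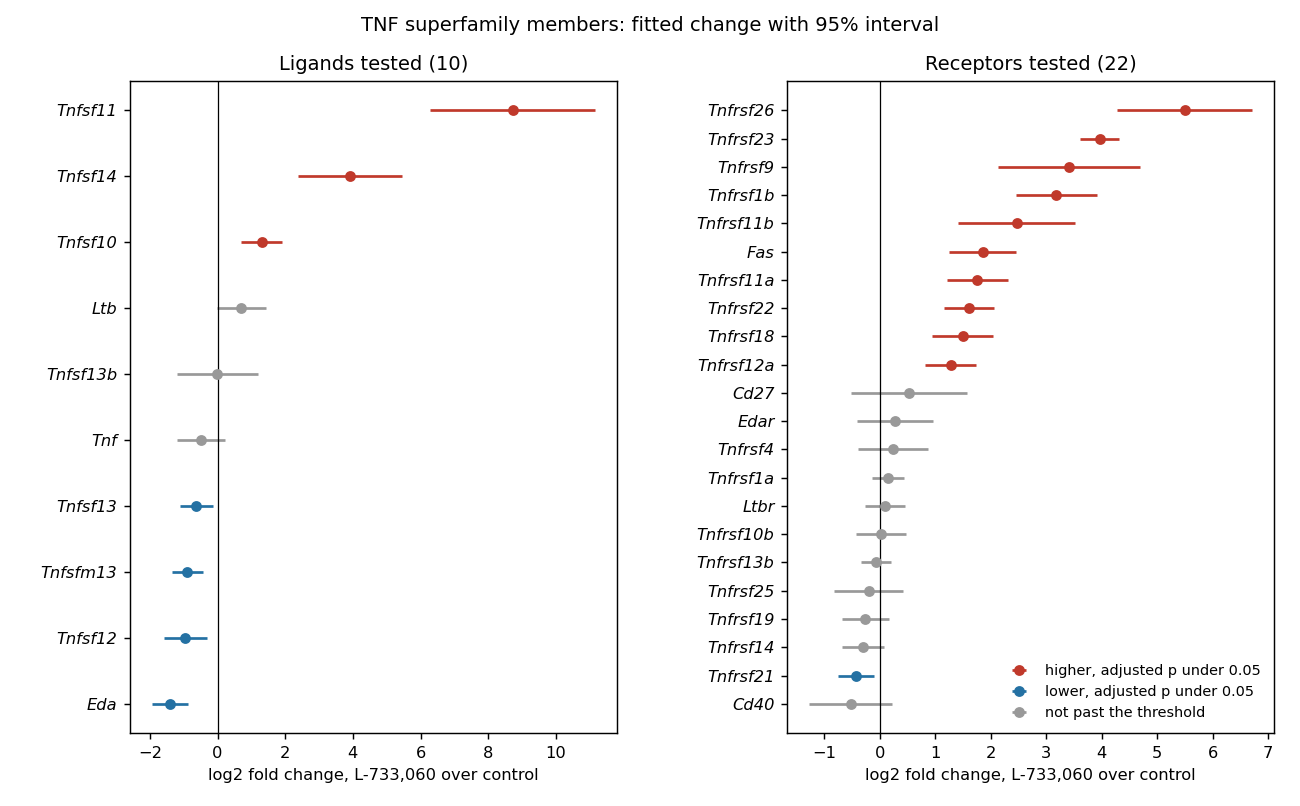
Fitted log2 fold change of L-733,060 over control (horizontal axis, with a separate range in each panel) for the 10 tested ligands and 22 tested receptors, with 95% intervals as bars and colours for the side of the threshold. The 10 receptors that rose lie wholly to the right of zero, and Tnfrsf21 is the one whose interval lies wholly to the left.

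The ligand with the largest relative change was Tnfsf11, which encodes RANK ligand, the cytokine that drives osteoclast formation and that stromal, lymphoid and epithelial cells can make (chromosome 14, 78277446 to 78308043, minus strand, mm10). It had 88, 37 and 26 counts in L-733,060 samples 1 to 3 and 0 in each control. Every L-733,060 sample thus lay above every control, with sample 1 the highest. The summed counts were at least 54.0-fold higher with L-733,060, taking the controls at a floor of 3 counts in all (edgeR adjusted p = 0.000165). The exact 95% counting interval of the ratio began at 43.3. The bound was 33.9-fold without L-733,060 sample 1 and 34.9-fold without control 3. The start of the gene is shown because it is the tested member whose transcript was not seen in any control. The sequence covers 250 bases before and 50 bases after the RefSeq start (chr14:78307994-78308293, minus strand, GRCm38.p6, the reference behind mm10), and capitals mark a TATA motif, TATAAA on either strand, with its first base 32 bases upstream of the start.
Tnfsf11: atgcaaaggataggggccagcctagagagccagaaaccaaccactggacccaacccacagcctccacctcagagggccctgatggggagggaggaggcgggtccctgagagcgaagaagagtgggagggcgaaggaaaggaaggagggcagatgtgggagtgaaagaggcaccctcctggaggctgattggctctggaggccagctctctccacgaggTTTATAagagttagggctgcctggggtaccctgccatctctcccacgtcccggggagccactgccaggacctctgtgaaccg

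Both receptors of RANK ligand rose as well. Tnfrsf11a, which encodes the signalling receptor RANK, measured 4.72, 5.51 and 6.70 CPM with L-733,060 and 2.08, 1.60 and 1.33 CPM in controls. The groups did not overlap, and the log2 fold change was 1.76 (SE 0.25, edgeR adjusted p = 0.000182). Tnfrsf11b encodes osteoprotegerin, the secreted decoy that captures RANK ligand. It measured 39.9, 26.6 and 6.61 CPM with L-733,060 and 4.02, 5.50 and 3.72 CPM in controls (log2 fold change 2.46, SE 0.48, edgeR adjusted p = 0.00166). L-733,060 sample 3 stood close above the controls and the other two far above them.

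On the per-length scale of the deposited TPM (counts per base of transcript, rescaled to the same total in each sample), Tnfrsf11b lay above Tnfsf11 in every L-733,060 sample, at 28.4, 19.7 and 5.22 TPM against 3.80, 1.84 and 1.16 TPM for the ligand. The log2 ratio of ligand to decoy was -2.77 ± 0.64 (SD, n = 3) in the L-733,060 samples, with a pseudocount of 0.1 TPM. No ligand count was seen in controls, where the decoy measured 3.09, 3.85 and 2.79 TPM, so the control ratio of -5.05 ± 0.23 rests on the pseudocount. The difference of 2.28 between the groups turned to -0.26 with a pseudocount of 1 TPM, so neither its size nor its sign can be read apart from the pseudocount. In summed counts, which need no pseudocount, Tnfsf11 had 151 and Tnfrsf11b 1475 with L-733,060. The controls had 0 and 291 in the same order. Of 10 genes that osteoclasts use downstream of RANK, 6 were tested and 5 rose, beside 21.4% of all tested genes. Mmp9 and Atp6v0d2 passed the filter on low counts only through the L-733,060 samples, so their direction was fixed and 3 of the 5 rises bear on the list. The gelatinase Mmp9 rose by log2 6.32 (SE 0.36), the tartrate-resistant phosphatase Acp5 by 1.39 (SE 0.14), the integrin Itgb3 by 1.92 (SE 0.39) and the proton pump subunit Atp6v0d2 by 3.05 (SE 0.67), and none of the 4 had an edgeR adjusted p above 0.00343. Macrophages and neutrophils also express several of these genes. The master regulator Nfatc1 measured 5.19 ± 1.14 CPM with L-733,060 and 5.40 ± 0.53 CPM in controls (SD, n = 3 each). The calcitonin receptor Calcr, a gene of mature osteoclasts, had 0 counts over the L-733,060 samples and 1 over the controls. Of the other untested genes of the list, Oscar had 9 counts with L-733,060 and 10 in controls. Dcstamp had 11 and 7, and Ocstamp 30 and 8, in the same order.

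The death ligand TRAIL rose together with its decoy receptors, and its signalling receptor did not pass the threshold. Tnfsf10, which encodes TRAIL, measured 50.2, 128 and 83.4 CPM with L-733,060 and 27.7, 44.3 and 33.8 CPM in controls, a log2 fold change of 1.31 (SE 0.28, edgeR adjusted p = 0.00291). The lowest L-733,060 sample, sample 1, lay just above the highest control. Tnfrsf10b, the mouse TRAIL receptor with a death domain, measured 4.43, 4.87 and 4.11 CPM with L-733,060 and 5.0, 4.56 and 3.63 CPM in controls. The groups overlapped, and its log2 fold change of 0.02 had a 95% interval of -0.43 to 0.47.

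Tnfrsf23 and Tnfrsf22 encode mouse decoys that bind TRAIL and lack a working death domain. Tnfrsf23 measured 48.4, 38.8 and 46.2 CPM with L-733,060 and 2.78, 2.68 and 3.08 CPM in controls. Its log2 fold change of 3.96 (SE 0.16) had the smallest adjusted p of all members tested, 3.16e-08 in edgeR. Tnfrsf22 measured 9.73, 11.9 and 11.8 CPM with L-733,060 and 3.10, 3.24 and 4.66 CPM in controls, a log2 fold change of 1.60 (SE 0.21, edgeR adjusted p = 9.32e-05). Neither gene had overlapping groups. The annotated transcripts of the pair share a run of 306 bases, and 17.3% of the 50-base words of Tnfrsf22 occur in Tnfrsf23, so the split of reads between them is uncertain. With their counts summed, the log2 fold change was 3.09 (SE 0.15, edgeR adjusted p = 8.60e-08).

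Tnfrsf26, a receptor gene with no role stated here, completes a cluster with the decoys on chromosome 7. It had 46, 54 and 85 counts with L-733,060 and 0, 1 and 3 counts in controls. The ratio of the summed counts was 49.6, with a 95% counting interval of 19.0 to 184 (edgeR adjusted p = 1.44e-05), and the fitted log2 fold change of 5.49 became 6.67 without control 3. It shares no 50-base word with Tnfrsf22 or Tnfrsf23. The cluster lies within 143607685 to 143686436 of chromosome 7 (mm10), on the minus strand. Among 10 other tested genes within 200000 bases of the cluster, 1 rose and 4 fell, beside 21.4% higher and 19.9% lower over all tested genes. Log2 fold changes of these neighbours ran from -1.78 to 0.76. The neighbour that rose was Cars, which encodes a tRNA synthetase (log2 fold change 0.76, edgeR adjusted p = 0.00156), and all 3 members of the cluster rose. As Tnfrsf26 was tested only through the L-733,060 samples, its direction was fixed. Its rise therefore does not bear on the comparison with the neighbours, which rests on Tnfrsf22 and Tnfrsf23, a pair whose split of reads is uncertain.

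**Figure D2:**
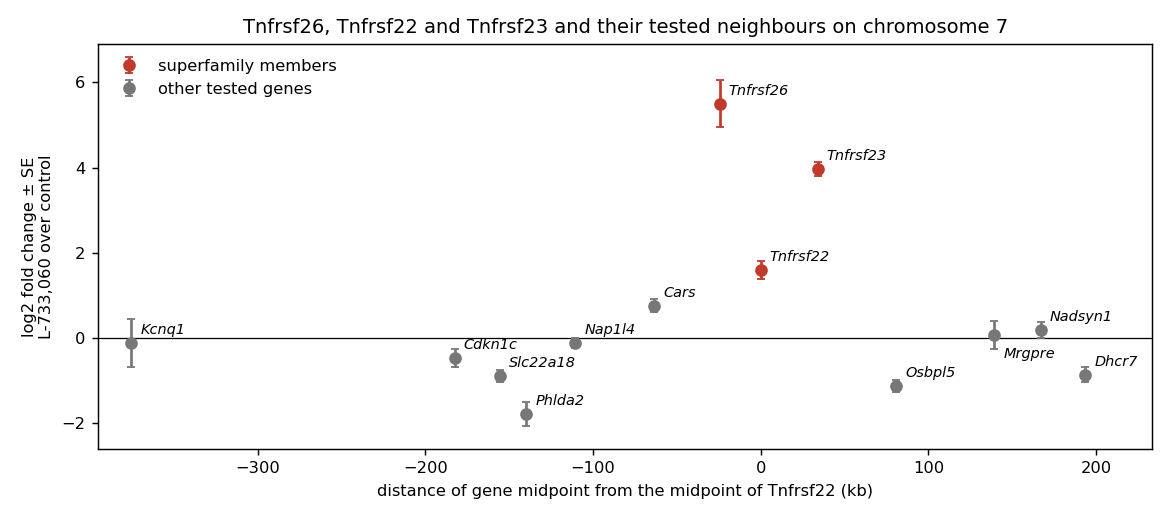
Log2 fold change of L-733,060 over control (vertical axis, bars ± SE) against the distance in kb of each tested gene's midpoint from the midpoint of Tnfrsf22. The 3 cluster members stand at 1.60 to 5.49, above all 10 other tested genes, which lie between -1.78 and 0.76. The member at 5.49, Tnfrsf26, was tested only through the L-733,060 samples, which fixed its direction.

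Of the 6 death-domain receptors, Fas rose, Tnfrsf21 fell and the other 4 did not pass the threshold. That is 33.3% past the threshold, beside 41.3% of all tested genes. Fas, the receptor of Fas ligand, measured 10.1, 12.8 and 6.48 CPM with L-733,060 and 2.04, 3.38 and 2.69 CPM in controls (log2 fold change 1.85, SE 0.28, edgeR adjusted p = 0.000262). Its groups did not overlap, with sample 3 the lowest of the L-733,060 samples. Fasl, its ligand, was barely detected, with 11 counts over the L-733,060 samples and 1 over the controls. That is 11.8 times as many after scaling to library size, with a 95% counting interval of 1.71 to 508. With no filter on low counts Fasl did not pass the threshold (edgeR adjusted p = 0.0948). The start region of Fas (chr19:34290409-34290708, plus strand, GRCm38.p6) is shown as the one death-domain receptor that rose, and capitals mark an AP-1 motif (TGANTCA) and a STAT motif (TTCNNNGAA).
Fas: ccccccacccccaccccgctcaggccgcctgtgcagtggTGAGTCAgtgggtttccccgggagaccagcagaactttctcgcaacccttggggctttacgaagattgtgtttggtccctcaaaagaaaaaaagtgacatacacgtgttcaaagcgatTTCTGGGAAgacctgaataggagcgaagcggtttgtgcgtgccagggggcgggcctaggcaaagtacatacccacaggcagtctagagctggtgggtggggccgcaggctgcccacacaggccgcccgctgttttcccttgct

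Tnfrsf21, which encodes death receptor 6, measured 51.8, 62.2 and 78.0 CPM with L-733,060 and 90.4, 79.1 and 89.7 CPM in controls. The highest L-733,060 sample lay just under the lowest control, and the log2 fold change was -0.43 (SE 0.15, edgeR adjusted p = 0.0369). The call was lost without L-733,060 sample 1 (edgeR adjusted p = 0.161), L-733,060 sample 2 (0.0815), control 1 (0.108) or control 3 (0.121). Tnfrsf1a, the main TNF receptor of most cells, measured 85.8, 80.0 and 105 CPM with L-733,060 and 88.2, 74.1 and 82.2 CPM in controls, with overlapping groups and a 95% interval of -0.14 to 0.44 for the log2 fold change. Tnfrsf25, the receptor of the cytokine TL1A, had a log2 fold change of -0.20 with an interval of -0.83 to 0.42.

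In the TNF pathway itself the second receptor changed and the ligand did not pass the threshold. Tnf measured 6.69, 5.19 and 2.41 CPM with L-733,060 and 8.23, 4.89 and 6.88 CPM in controls. The groups overlapped, and the interval of the log2 fold change was -1.19 to 0.21. Tnfrsf1b, the TNF receptor found mostly on leukocytes and endothelium, measured 12.9, 14.02 and 7.64 CPM with L-733,060 and 1.34, 1.79 and 0.684 CPM in controls. Every L-733,060 sample was above every control, and the log2 fold change was 3.18 (SE 0.33, edgeR adjusted p = 1.82e-05). On the TPM scale it still lay below Tnfrsf1a, at 4.89 ± 1.28 TPM against 88.4 ± 17.1 TPM with L-733,060 and at 0.534 ± 0.217 TPM against 79.0 ± 10.5 TPM in controls (SD, n = 3 each). Its start region (chr4:145246821-145247120, minus strand, GRCm38.p6) is given for comparison with that of Fas, with capitals for a STAT motif and for an interferon-response core (TTTC, any 2 bases, TTTC) that ends at the base before the start.
Tnfrsf1b: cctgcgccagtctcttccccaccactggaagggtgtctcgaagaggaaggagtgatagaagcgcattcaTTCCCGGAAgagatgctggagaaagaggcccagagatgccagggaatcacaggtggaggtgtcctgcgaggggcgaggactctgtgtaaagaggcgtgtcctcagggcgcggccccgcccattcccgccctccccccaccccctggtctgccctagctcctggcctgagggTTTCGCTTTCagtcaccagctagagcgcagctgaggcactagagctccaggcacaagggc

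Among the lymphotoxins and LIGHT, which share the receptors Ltbr and Tnfrsf14, Tnfsf14 rose. Tnfsf14, the gene of LIGHT, had 33, 29 and 12 counts with L-733,060 and 2, 0 and 3 counts in controls, a count ratio of 15.9 (interval 6.50 to 50.3, edgeR adjusted p = 0.000905). Its fitted log2 fold change of 3.91 became 4.54 without control 3. Ltb, which encodes lymphotoxin beta, measured 3.13, 3.64 and 1.79 CPM with L-733,060 and 2.41, 1.36 and 1.45 CPM in controls. These groups overlapped through sample 3 (edgeR adjusted p = 0.109), and without it the log2 fold change was 0.94 (edgeR adjusted p = 0.0192). Lta, the partner of Ltb, had 7 counts in each group. Neither receptor passed the threshold. Ltbr, the lymphotoxin beta receptor, had a log2 fold change of 0.09 with an interval of -0.27 to 0.45, and Tnfrsf14 one of -0.31 with an interval of -0.69 to 0.08.

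The receptor for TWEAK, a cytokine of tissue repair, rose while the ligand fell. Tnfrsf12a, whose small receptor Fn14 is induced in injured tissue, measured 23.0, 18.7 and 32.0 CPM with L-733,060 and 12.3, 9.40 and 8.68 CPM in controls (log2 fold change 1.28, SE 0.21, edgeR adjusted p = 0.000508). Its groups did not overlap, and at 54.0 ± 17.6 TPM it was second in level among the members with L-733,060, after Tnfrsf1a, and in controls it was 4th at 21.9 ± 4.88 TPM (SD, n = 3 each). Tnfsf12, the gene of TWEAK, measured 2.12, 1.55 and 2.59 CPM with L-733,060 and 3.47, 3.10 and 5.60 CPM in controls, without overlap (log2 fold change -0.95, SE 0.29, edgeR adjusted p = 0.0214). This call was lost without L-733,060 sample 1 (edgeR adjusted p = 0.0552), L-733,060 sample 2 (0.0676) or control 3 (0.120). In the GENCODE M21 annotation 731 of the 1515 exonic bases of Tnfsf12 are shared with the read-through row Tnfsfm13. The fall of Tnfsf12 is thus not separate from the fall of that row.

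Ectodysplasin, which shapes hair, teeth and the meibomian glands of the eyelid, fell. Eda measured 3.03, 2.84 and 3.80 CPM with L-733,060 and 10.8, 8.78 and 5.94 CPM in controls. The groups did not overlap, although the controls differed widely among themselves, and the log2 fold change was -1.40 (SE 0.25, edgeR adjusted p = 0.000798). Edar, its death-domain receptor, measured 3.90, 3.48 and 5.85 CPM with L-733,060 and 2.64, 2.77 and 5.52 CPM in controls, with sample 3 the highest in both groups and an interval of -0.41 to 0.96 for the log2 fold change. Edaradd, the adaptor that Edar recruits, rose by log2 1.64 (SE 0.21), at 18.4 ± 1.61 CPM with L-733,060 and 5.92 ± 1.70 CPM in controls (SD, n = 3 each; edgeR adjusted p = 7.72e-05). Receptors of the family that carry other names, 3 in all, were listed apart. Of these Eda2r, the receptor for the A2 form of ectodysplasin, had a log2 fold change of 3.20 (SE 0.34, edgeR adjusted p = 2.21e-05), and Relt, a TRAF-binding receptor, one of 2.20 (SE 0.36, edgeR adjusted p = 0.000455). Relt passed the filter only through the L-733,060 samples. The neurotrophin receptor Ngfr measured 26.8 ± 11.1 CPM with L-733,060 and 25.3 ± 8.48 CPM in controls.

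**Figure D3:**
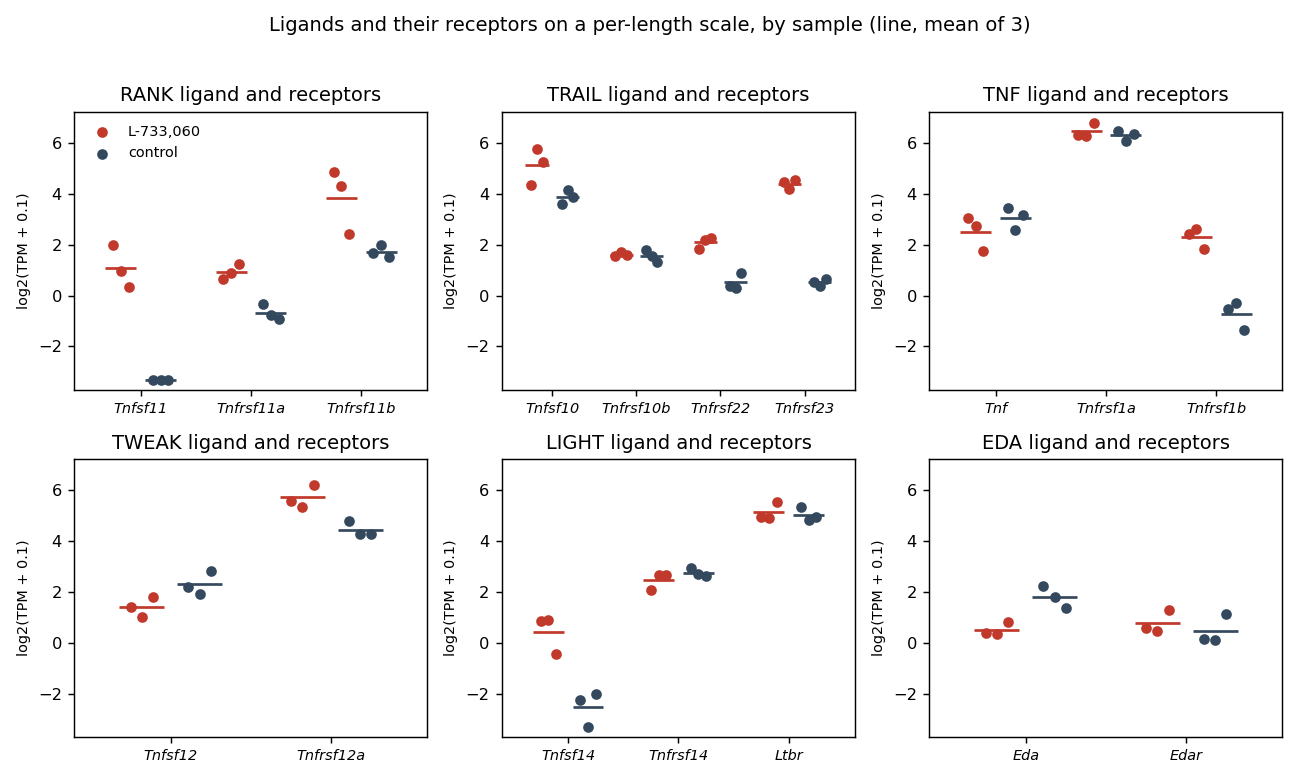
Levels as log2(TPM + 0.1) of 6 ligands and their receptors in each sample (points, with the mean of 3 as a line), L-733,060 in red and control in dark blue. Tnfsf11 was at 0 TPM in the controls, Tnfrsf23 and Tnfrsf1b moved far above their controls, and Tnfrsf10b, Tnfrsf1a, Ltbr and Edar overlapped between the groups.

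The cytokines of B cell survival fell or stayed low, and one of their receptors was measured far above the markers of B cells. Tnfsf13, which encodes APRIL, measured 3.76, 3.05 and 2.59 CPM with L-733,060 and 5.60, 4.74 and 4.23 CPM in controls, without overlap (log2 fold change -0.63, SE 0.22, edgeR adjusted p = 0.0402). Its call was lost without L-733,060 sample 2 (edgeR adjusted p = 0.0836), L-733,060 sample 3 (0.0904), control 1 (0.137) or control 2 (0.0707). Tnfsfm13, a row for transcripts that run from Tnfsf12 into Tnfsf13, measured 3.56, 2.57 and 2.99 CPM with L-733,060 and 5.92, 5.12 and 5.99 CPM in controls. Its groups did not overlap, and it fell by 0.90 on the log2 scale (SE 0.21, edgeR adjusted p = 0.00471). In the GENCODE M21 annotation its exons share 731 bases with those of Tnfsf12 and 983 bases with those of Tnfsf13, so the reads of these rows cannot be told apart and their falls are not separate results. Tnfsf13b, the gene of BAFF, had 26 counts with L-733,060 and 28 counts in controls.

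Tnfrsf13b, the receptor TACI of B cells, measured 29.7, 26.0 and 29.3 CPM with L-733,060 and 28.4, 28.6 and 31.8 CPM in controls (interval of the log2 fold change -0.33 to 0.21). Other genes of B cells were almost absent. The 7 B and plasma cell markers together made 1.93 to 2.19 CPM with L-733,060 and 1.25 to 2.52 CPM in controls, and the B cell receptors Tnfrsf13c and Tnfrsf17 had 2 and 1 counts with L-733,060 and 1 count each in controls. The deposited span of Tnfrsf13b (chromosome 11, 61126283 to 61153170, plus strand, mm10) overlaps the ubiquitin protease gene Usp22 on the minus strand by 1390 bases, of which 0 are exonic in both genes in GENCODE M21, and its deposited length of 6942 bases exceeds the 2836 exonic bases of GENCODE M21. Usp22 measured 65.8 ± 1.73 CPM with L-733,060 and 77.2 ± 6.08 CPM in controls (SD, n = 3 each). The strand setting and annotation release of the counting are not stated, and whether Usp22 reads were counted for Tnfrsf13b was not tested.

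Receptors of lymphocyte costimulation were low. Of 5 tested, 2 rose and the others did not pass, beside 21.4% of all tested genes that were higher. The share past the threshold was near the 41.3% of all tested genes that passed in either direction. One of the 2 that rose, Tnfrsf9, was tested only through the L-733,060 samples. Tnfrsf18, which encodes GITR, measured 5.97, 3.85 and 4.20 CPM with L-733,060 and 1.80, 1.60 and 1.58 CPM in controls (log2 fold change 1.49, SE 0.25, edgeR adjusted p = 0.000575). Tnfrsf9, which encodes the activation marker 4-1BB, had 17, 14 and 12 counts with L-733,060 and 2, 1 and 1 counts in controls, a count ratio of 11.5 (interval 4.19 to 44.2, edgeR adjusted p = 0.000663). Both genes had groups without overlap. Cd40, the activating receptor of antigen-presenting cells, measured 1.30, 0.589 and 0.983 CPM with L-733,060 and 1.34, 1.36 and 1.45 CPM in controls. Its groups did not overlap either, yet the log2 fold change of -0.52 did not pass the threshold (SE 0.34, edgeR adjusted p = 0.247). Tnfrsf4, the receptor OX40, and the T cell receptor Cd27 had intervals of -0.40 to 0.87 and -0.52 to 1.58 for the log2 fold change. The first annotated start of Tnfrsf9 (chr4:150919905-150920204) held no match to the motifs marked in these start regions. Counts by gene do not tell which start was used. The second annotated start (chr4:150927749-150928048, plus strand, GRCm38.p6) is shown because it held the motifs of 3 factor families. Capitals mark a kappa-B consensus found in 2 overlapping positions, an AP-1 motif and a STAT motif.
Tnfrsf9: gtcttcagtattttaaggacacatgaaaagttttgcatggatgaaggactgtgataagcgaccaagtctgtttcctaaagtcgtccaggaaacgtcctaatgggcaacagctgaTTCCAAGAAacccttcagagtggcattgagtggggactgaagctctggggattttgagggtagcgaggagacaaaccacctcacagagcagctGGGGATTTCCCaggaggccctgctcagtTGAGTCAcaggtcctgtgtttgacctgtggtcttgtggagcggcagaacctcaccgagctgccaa

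The ligands of these receptors and the rarest receptors were under the filter on low counts. Cd40lg and Cd70 had 0 counts in all 6 samples, which allows up to 0.127 to 0.160 CPM in a sample. Tnfsf9, the ligand of 4-1BB, had 29 counts with L-733,060 and 6 in controls (ratio 5.18, counting interval 2.11 to 15.3), and Tnfrsf8, which encodes CD30, had 19 counts with L-733,060 and 2 in controls (ratio 10.2, interval 2.46 to 90.2). With no filter both rose, at edgeR adjusted p-values of 0.0185 and 0.0230. Tnfsf15, which encodes TL1A, had 18 counts with L-733,060 and 7 in controls. Its ratio was 2.76, with an interval of 1.10 to 7.81 that covers counting error only, and with no filter it did not pass (edgeR adjusted p = 0.277). Tnfsf4, the ligand of OX40, had 7 counts with L-733,060 and 0 in controls, at least 2.50-fold more when the controls are taken at the same floor, with an exact counting interval that began at 1.54. It did not pass the threshold with no filter (edgeR adjusted p = 0.0827). Tnfsf18 had 14 counts with L-733,060 and 7 in controls, and Tnfsf8 had 12 with L-733,060 and 9 in controls. For both of these the counting interval held a ratio of 1, so a difference was not detectable with so few reads. The last receptor, Tnfrsf19 or Troy, which marks some epithelial and neural progenitors, measured 6.16, 6.05 and 4.91 CPM with L-733,060 and 5.64, 7.14 and 7.70 CPM in controls, with overlap and an interval of -0.69 to 0.17.

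**Figure D4:**
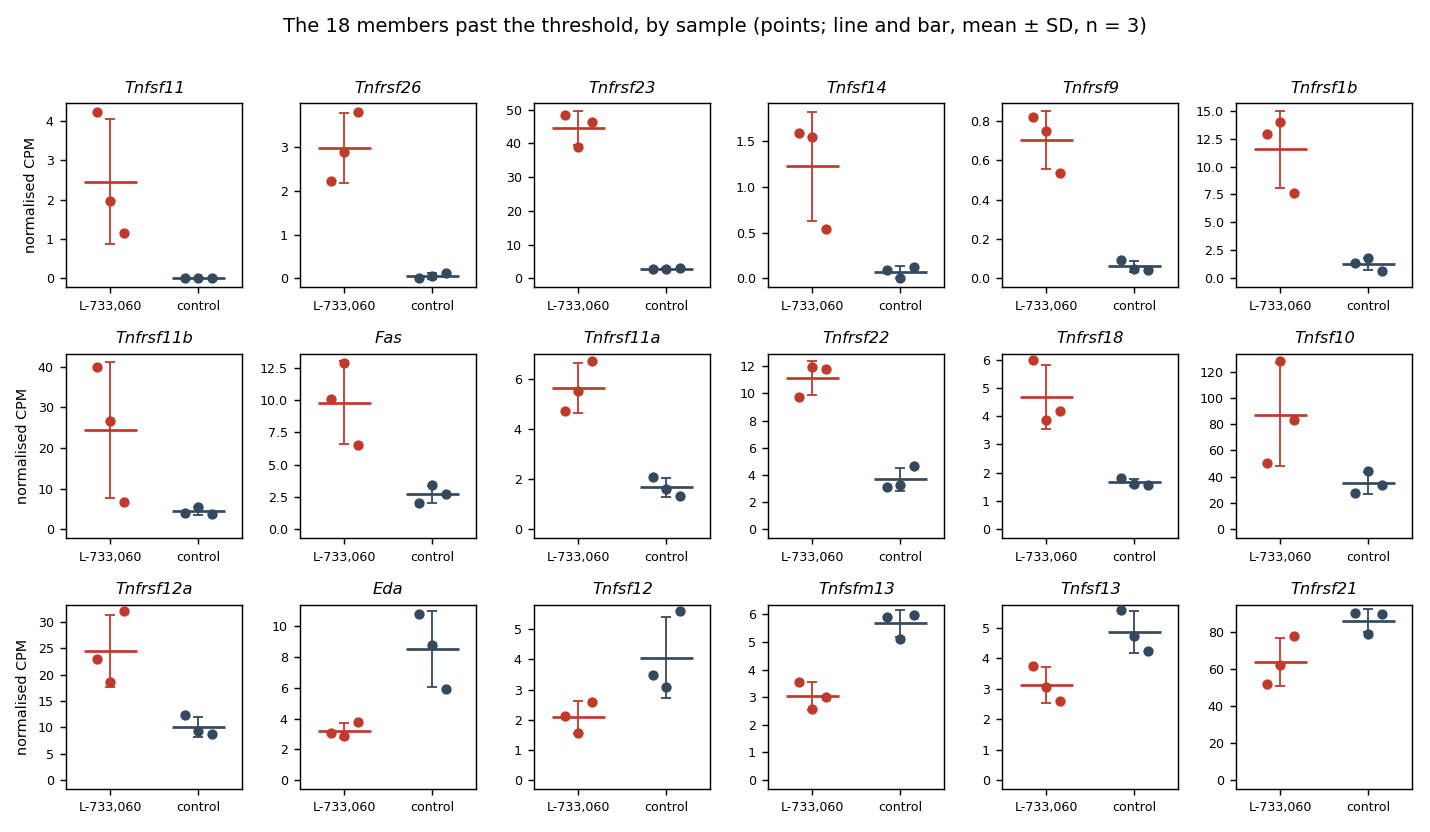
Normalised CPM of the 18 members past the threshold in each sample (points, with line and bar for mean ± SD, n = 3), L-733,060 left of control in every panel and each vertical axis on its own range. In all 18 panels the groups do not overlap, and L-733,060 sample 3, the rightmost red point, is the lowest of its group for Tnfsf11, Tnfsf14, Tnfrsf9, Tnfrsf1b, Tnfrsf11b and Fas.

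Per length, the same 5 genes led in both groups. The 25 receptors together came to 295, 282 and 363 TPM with L-733,060 and 252, 198 and 225 TPM in controls, and the 19 ligands to 53.6, 81.8 and 59.8 TPM with L-733,060 and 50.3, 43.9 and 47.9 TPM in controls. Neither sum overlapped between the groups. The ligand sum averaged 65.1 TPM with L-733,060 and 47.4 TPM in controls, of which Tnfsf10 alone made 37.3 and 14.7 TPM. The gain of Tnfsf10 was larger than that of the ligand sum, so the other ligands together had a lower mean with L-733,060. With L-733,060 the order was Tnfrsf1a, Tnfrsf12a, Tnfrsf21 (37.4 ± 9.70 TPM), Tnfsf10 (37.3 ± 16.8 TPM) and Ltbr (35.4 ± 9.35 TPM), and the last 3 lie within each other's spread. In controls Tnfrsf1a was followed by Tnfrsf21 (49.7 ± 5.90 TPM), Ltbr (32.8 ± 5.95 TPM), Tnfrsf12a and Tnfsf10 (14.7 ± 2.79 TPM). Tnfrsf23 stood 6th of 44 with L-733,060, at 21.1 ± 2.57 TPM, and 24th in controls, at 1.34 ± 0.14 TPM (SD, n = 3 each). Tnfrsf12a, Tnfsf10, Tnfrsf23 and Tnfrsf11b gained most in TPM, with differences of 32.0, 22.5, 19.8 and 14.5 TPM between the group means, whereas Tnfrsf21 lost 12.4 TPM.

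Markers of leukocytes moved as well, in both directions. The pan-leukocyte gene Ptprc measured 16.2, 17.8 and 10.01 CPM with L-733,060 and 1.67, 2.91 and 3.34 CPM in controls (edgeR adjusted p = 3.75e-05). Among the L-733,060 samples it was lowest in sample 3, as were 6 of the 13 members that rose (Tnfrsf1b, Tnfrsf9, Tnfsf14, Tnfsf11, Tnfrsf11b and Fas), whereas Tnfrsf11a, Tnfrsf12a and Tnfrsf26 were highest there and the other 4 were lowest in sample 1 or 2. Also lowest in sample 3 was the summed level of 8 neutrophil markers, which ran from 60.6 to 337 CPM with L-733,060 and from 6.15 to 13.2 CPM in controls. Of the tested markers, 5 of 5 of neutrophils, 11 of 12 of macrophages and 6 of 7 of T and NK cells rose, beside 21.4% of all tested genes. All 6 of the T and NK cell markers that rose and 1 of the neutrophil markers were tested only through the L-733,060 samples, which fixed their direction. The T and NK cell marker that did not pass, Foxp3, had the highest mean of its list in both groups. It measured 4.47 ± 0.48 CPM with L-733,060 and 4.28 ± 0.54 CPM in controls (SD, n = 3 each). Both tested mast cell markers fell, Cpa3 by 3.79 (SE 0.56) and Kit by 1.07 (SE 0.21) on the log2 scale, and the mast cell list summed to 54.8 to 102 CPM with L-733,060 and 143 to 199 CPM in controls, mostly from Kit, which other cells also express. Cpa3 was tested only through the controls. The macrophage list summed to 829 to 1006 CPM with L-733,060 and 580 to 702 CPM in controls, mostly from Itgam, the member that did not pass, and the T and NK cell list to 9.61 to 12.7 CPM with L-733,060 and 4.86 to 6.29 CPM in controls. Some untested markers of the neutrophil and the T and NK cell lists had few counts in both groups. Mpo had 3 counts with L-733,060 and 0 in controls, Ly6g had 6 and 5, and Ncr1 had 4 and 0. Of other markers there that were not tested, Retnlg had 136 counts with L-733,060 and 1 in controls, and Cd8b1 34 and 15. Of 8 endothelial markers 4 rose and 1 fell, with sums of 60.2 to 84.5 CPM with L-733,060 and 47.8 to 65.9 CPM in controls, and of 8 fibroblast and keratocyte markers 5 rose and 3 fell. The corneal epithelial markers fell in 3 of 3 cases, to sums of 2418 to 3264 CPM with L-733,060 against 25453 to 34812 CPM in controls. The part of these cell types in the changes of the family was not tested.

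Downstream of the receptors, 8 of 13 genes of death signalling rose and 1 fell, beside 21.4% higher and 19.9% lower over all tested genes, with a median log2 fold change of 0.42. The necroptosis effector Mlkl rose by log2 2.37 (SE 0.20) and its activating kinase Ripk3 by 1.46 (SE 0.22), while the apoptosome caspase Casp9 fell by 0.90 (SE 0.15; edgeR adjusted p at most 0.000489 for all 3). Of 18 adaptors and ubiquitin enzymes 3 rose and 3 fell. Beside Edaradd, Birc3, an inhibitor of apoptosis that NF-kB induces, rose by log2 1.23 (SE 0.17), while Traf5 fell by 0.60 (SE 0.14) and the ubiquitin ligase Rnf31 by 0.64 (SE 0.17; edgeR adjusted p at most 0.0106). The canonical NF-kB list had 3 of 9 genes higher, Rel by log2 0.57, Tab3 by 0.55 and Nfkb1 by 0.49, and 1 lower, Tab2, which fell by 0.32 (edgeR adjusted p at most 0.0336). None of the 3 non-canonical genes Map3k14, Nfkb2 and Relb passed the threshold in edgeR, and none had an unadjusted p under 0.05.

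Among 12 inhibitors of receptor signalling 3 rose and 1 fell. Traip rose by log2 1.51 (SE 0.20) and is better known as a ubiquitin ligase of DNA replication, the NF-kB inhibitor Nfkbie rose by 1.20 (SE 0.27) and Tnip2 by 0.66 (SE 0.14), while Nfkbib fell by 0.61 (SE 0.15; edgeR adjusted p at most 0.00749). Of 6 genes that govern shedding of ligands and receptors, the sheddases Adam10 and Adam17 rose by log2 0.87 (SE 0.11) and 0.50 (SE 0.13). Timp3, the inhibitor of Adam17, fell by 1.24 (SE 0.13) and Rhbdf1, which escorts Adam17 to the cell surface, by 0.86 (SE 0.18; edgeR adjusted p at most 0.00737). As 41.3% of all tested genes passed the threshold, the shares of 6 of 18 adaptors, 4 of 12 inhibitors and 4 of 9 canonical NF-kB genes were near or below that background.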

How the data were processed

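RNA from 3 L-733,060 and 3 control samples was poly(A)-selected and sequenced, per the labels. The authors deposited whole-number counts by gene and TPM. Dividing each count by the gene length in the deposited table (an other value, in bases) and rescaling gave the TPM to within 4.96e-06. The submitters' processing notes name bcl2fastq, HISAT2 2.1.0, HTSeq 0.11.2 and mm10, with no strand setting or annotation release.

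In R 4.3.3 with edgeR 4.0.16, filterByExpr (minimum count 10, total 15) kept 15712 genes, TMM scaled the libraries, and a two-sided quasi-likelihood F test compared L-733,060 with control. P-values were Benjamini-Hochberg adjusted across the 15712. CPM are TMM-normalised, intervals are 95%, and ratios of summed counts have exact intervals for counting error only, since PCR copies count as reads. Alternatives were DESeq2 1.42.0 (size factors or test), no filter, a replicate block, other pseudocounts and leaving out each sample, and summing Tnfrsf22 and Tnfrsf23 was added after seeing the data. The fit was tested on simulated counts. All 44 positions matched RefSeq GRCm38.p6, which gave promoters for 34 members.

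Members, lists and alternatives were chosen with earlier results of these data known. All tested members were named, and up to 4 genes of smallest p from each pathway list, except 1 that is not reported here. Ngfr, Nfatc1, Calcr, Oscar, Dcstamp, Ocstamp, Map3k14, Nfkb2, Relb, Cars, Usp22, Krt12, Mpo, Ly6g, Ncr1, Retnlg, Cd8b1, Foxp3, Itgam, Cpa3 and Kit were named after their values were seen.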

Additional observations from a re-analysis of the deposited data

How the results depend on the processing

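With DESeq2 size factors, the DESeq2 test and the replicate block, the 13 rises and 5 falls were the same genes, and without the filter Tnfrsf8 and Tnfsf9 were added. Leaving out each sample gave 13 to 14 rises, with Ltb the one added, and 2 to 4 falls. It gave 2677 to 3722 genes higher and 2354 to 3788 lower over all genes, against 3367 and 3129 with all samples. For genes not past the threshold the log2 fold change took both signs with a sample left out: -0.11 (without L-733,060 3) to 0.21 (without control 1) for Ltbr, -0.10 (without control 3) to 0.12 (without control 1) for Tnfrsf10b and -0.64 (without L-733,060 1) to 0.23 (without L-733,060 3) for Tnfsf13b. The cause was not tested. The difference in the log2 ratio of Tnfsf11 to Tnfrsf11b was 2.28 with a pseudocount of 0.1 TPM, 5.51 with 0.01 TPM and -0.26 with 1 TPM, since the ligand had no counts in controls, and 1.94 to 2.57 with a sample left out. The differences in summed TPM were 17.7 for ligands (9.32 to 23.4 with a sample left out) and 88.2 for receptors (63.3 to 104). Tnfsf10 alone differed by 22.5 TPM between the group means, more than the ligand sum.

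Samples with the same replicate number share only that number. The correlation of their deviations from the group means was -0.02, 0.27 and 0.13, and for samples with different numbers it ran from -0.30 to 0.16. With the replicate block 3609 genes were higher and 3462 lower, beside 13 and 5 members. Genes with under 10 counts a sample, which include most ligands of lymphocyte receptors, are limited by depth.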

Other observations

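Promoters of 34 members, 38 sequences of 300 bases, were scanned on both strands for the motifs shown above, where a match describes letters and no binding. The STAT motif TTCNNNGAA occurred in 9 of the 38, among them those of Fas, Tnfrsf18, Tnfrsf1b and Tnfrsf9, which rose, and of Ltb, Tnfrsf1a, Tnfrsf19 and Tnfrsf25, which did not pass the threshold, beside 8.30% of 32851 promoters in the table. The AP-1 motif TGANTCA occurred in 7 of 38, beside 7.81% of all promoters, and the kappa-B consensus in 3 of 38, those of Ltb, Tnfrsf8 and Tnfrsf9, beside 4.51%. TATAAA was found in 6 of 38, beside 13.6% of all, and the interferon-response core in 4 of 38, beside 3.44%. No matches to different motifs overlapped in these promoters.

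One noncoding row carries a family name. Tnfsf13os, which lies antisense to Tnfsf12 and Tnfsf13, had 8 counts over the L-733,060 samples and 22 over the controls, and without a known strand setting these reads cannot be told apart from those of its neighbours.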
